A study of Rattus norvegicus with 6 samples.

Results

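A templated 3′ length variant is a microRNA (miRNA) sequence that begins at the usual 5′ base of its miRNA, matches the hairpin precursor over its whole length, and stops at a base other than the most common 3′ end. These variants were read from small RNA libraries of RSC96, an established rat Schwann cell line, the glia of peripheral nerves. Cells were held for 48 h in high glucose (3 libraries) or in low glucose, the control condition (3 libraries), and the labels give no other agent and no genotype. The title of the series concerns exosomes, yet the labels leave out whether vesicles or whole cells were the source, and their extraction text speaks of retinas. All 6 libraries come from 1 cell line. The labels do not call the replicates separate cultures, so the p-values reflect only library-to-library spread, which may be technical.

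Members were chosen on counts pooled over the 6 libraries. For each hairpin arm, the 5′ (5p) or 3′ (3p) side of an annotated hairpin, the most counted start was fixed, and sequences of 20 to 25 nt that matched the hairpin without a mismatch from that start were kept. The most counted of these is called the main form, and every other length is a variant. Arms had to hold 100 or more matching counts of this length in every library. Of 370 arms with any such count, 56 met this minimum, and joining hairpin copies that share a main form left 49 arms. They carried 185 distinct variant sequences, in 271 pairings of a hairpin with a listed sequence, of 9522 distinct sequences in the series. Just inside the minimum were miR-24-2-5p and miR-20a-5p, with 101 and 114 counts in their lowest library, and just outside it were the 5p arms of mir-450b-1 and mir-450b-2, with 96 each.

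Most miRNAs, though not all, are cut from their hairpins by the nucleases Drosha and Dicer, one of which sets the 5′ and the other the 3′ end of a given arm. Exonucleases can then trim the 3′ end and transferases can add bases to it. The seed, bases 2 to 8 from the 5′ end, guides target recognition and is the same in all length variants with a fixed start, while the 3′ end is known to bear on stability and on loading into Argonaute proteins.

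The sequences below are those on which the comparison of high with low glucose turned. They are written 5′ to 3′ as DNA letters, with the seed in capitals and, at the 3′ end, capitals for the bases beyond the shortest form of that arm that held at least 2% of its counts in a group. miR-10a-5p and miR-10b-5p share the seed ACCCTGT and are encoded within Hox gene clusters.
miR-10a-5p 22 nt, main: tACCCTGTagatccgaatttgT
miR-10a-5p 23 nt: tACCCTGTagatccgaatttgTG
miR-10a-5p 24 nt: tACCCTGTagatccgaatttgTGT
miR-10b-5p 22 nt, main: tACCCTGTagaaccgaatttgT
miR-10b-5p 23 nt: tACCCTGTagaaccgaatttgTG
miR-99a-5p and miR-99b-5p share the seed ACCCGTA with miR-100-5p.
miR-99a-5p 21 nt, main: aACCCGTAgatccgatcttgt
miR-99a-5p 22 nt: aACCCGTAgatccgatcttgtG
miR-99b-5p 21 nt, main: cACCCGTAgaaccgaccttgC
miR-99b-5p 22 nt: cACCCGTAgaaccgaccttgCG
miR-125a-5p and miR-125b-5p, relatives of the nematode developmental regulator lin-4, share the seed CCCTGAG.
miR-125a-5p 22 nt, main: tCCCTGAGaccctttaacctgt
miR-125a-5p 23 nt: tCCCTGAGaccctttaacctgtG
miR-125b-5p 20 nt: tCCCTGAGaccctaacttgt
miR-125b-5p 21 nt, main: tCCCTGAGaccctaacttgtG
miR-125b-5p 22 nt: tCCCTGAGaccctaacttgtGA
miR-122-5p is the abundant miRNA of liver cells.
miR-122-5p 21 nt, main: tGGAGTGTgacaatggtgttT
miR-122-5p 22 nt: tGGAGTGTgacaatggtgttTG
miR-222-3p, miR-423-5p, miR-24-3p and miR-146b-5p show ends that moved in either direction.
miR-222-3p 21 nt: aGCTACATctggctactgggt
miR-222-3p 24 nt: aGCTACATctggctactgggtCTC
miR-222-3p 25 nt, main: aGCTACATctggctactgggtCTCT
miR-423-5p 21 nt: tGAGGGGCagagagcgagact
miR-423-5p 23 nt, main: tGAGGGGCagagagcgagactTT
miR-24-3p 20 nt: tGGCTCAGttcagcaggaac
miR-24-3p 22 nt, main: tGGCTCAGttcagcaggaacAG
miR-146b-5p 23 nt: tGAGAACTgaattccataggctG
miR-146b-5p 24 nt, main: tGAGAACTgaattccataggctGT

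Positions were counted from 1 at the 5′ end of the hairpin. The main form of miR-10a-5p covers bases 22 to 43 of a 110 nt hairpin, that of miR-125a-5p bases 15 to 36 of an 85 nt hairpin, and that of miR-222-3p bases 62 to 86 of a 103 nt hairpin. In RefSeq's annotation of the rat assembly GRCr8, the mature miR-10a-5p, which equals the 23 nt variant here, lies at chr10:81779730-81779752 on the plus strand. The mature miR-99b-5p, equal to the 22 nt variant, lies at chr1:67350070-67350091, and the mature miR-125a-5p, a 24 nt variant here, on the same strand at chr1:67350689-67350712. The mature miR-222-3p, the 21 nt variant, lies at chrX:6022682-6022702, also on the plus strand. Over all arms the RefSeq mature sequence equalled the main form in 26, a variant in 15 and no listed form in 8. Where it was a variant it was longer than the main form in 10 arms and shorter in 5.

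The libraries differed in depth with the groups, at 963706 to 1354456 counts in high and 114615 to 148143 in low glucose, a 9.31-fold difference in means. The mean length of all reads moved with the groups too, at 21.83 to 22.05 nt in high and 22.38 to 22.45 nt in low glucose. The forms with a fixed start made up 68.5% to 74.9% of the counts of a library. In high glucose 166, 165 and 165 variants were listed, in low glucose 148, 154 and 144. Of the 185, 133 were listed in every library, 23 in high glucose libraries only and 5 in low glucose libraries only, and sequences seen in a single read were not listed. Because depth, read length and group moved together, their parts in the results below cannot be told apart from that of glucose. Comparisons at equal depth follow only for the total counts of called arms and variants, the variant share and a few single arms.

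Markers fixed for other cell types were summed per library and expressed as CPM, counts scaled to the library's total. The nerve injury list, in which miR-21 was the most counted member, had 8 of 11 miRNAs listed and held 155037 to 227879 in high and 438407 to 472503 in low glucose. miR-9, miR-138 and miR-338 of that list were at 0 in every library. The erythroid list, with 4 of 4 listed, held 834 to 1025 in high against 3780 to 6483 in low glucose, and the liver list, with 3 of 3, held 9214 to 14931 against 3220 to 4572. The neuronal list, with 3 of 5 listed and its defining miR-124 at 0, held 15267 to 20401 against 6555 to 7521. Its miR-129 was at 0 in low glucose. The leukocyte list (5 of 5) held 1599 to 1821 against 2207 to 2384, the retinal list (4 of 5, miR-96 at 0) 57.9 to 116 against 67.5 to 131, and the muscle list (2 of 3, miR-133a at 0) 0 to 54.0 against 0. With counts scaled to library totals, the summed nerve injury, erythroid, liver, neuronal and leukocyte levels moved with the groups. Their part in the results was not tested. The retinal levels overlapped, and the muscle levels were 0 in at least 1 library of each group. The sums do not hold for every member, but sums and members are on different scales. The member values were scaled by edgeR's TMM factors and not by library totals, and the sums were not repeated on that scale. In the abundance fits described below (edgeR), the main forms of miR-222-3p, miR-29a-3p and miR-221-3p were higher in high glucose (log2 3.95, 1.53 and 1.29). Those of miR-21-5p and miR-140-3p were lower (log2 -0.77 and -1.09). The main form of the neuronal miR-218a-5p was lower (log2 -1.90), against its list.

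Most arms ended at a preferred base. The main form was 22 nt long in 24 arms, 21 nt in 13, 23 nt in 7 and another length in 5, and an arm had 1 to 7 variants, with a median of 4. Variants held 0.437% to 66.1% of an arm's fixed-start counts in high glucose, with a median of 16.3%, and 0% to 73.0% in low glucose, with a median of 21.01%. Of the 185 variants, 47 were shorter than the main form by 1 base and 46 longer by 1 base. A further 32 were shorter and 38 longer by 2 bases, and the rest lay further away. The most counted arm, miR-21-5p, had 2.17% ± 0.615 of its counts in a 21 nt and 9.67% ± 2.27 in a 22 nt variant in high glucose, and 2.78% ± 0.695 and 7.57% ± 1.06 in low glucose (SD, n = 3). The 22 nt variant of miR-21-5p was the most counted variant of all.

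The mean 3′ end of an arm, taken as the mean length of its fixed-start forms, does not depend on which form is called the main one. It was longer in high glucose in 6 of the 49 arms and shorter in 13, and 30 were not called (limma, Benjamini-Hochberg adjusted p under 0.05). The called share was 38.8%, against a background of 29.0% among all 93 arms fitted, and by direction the background was 7.53% longer and 21.5% shorter. The 93 include the 49. Arms outside the rule, of which 8 were called, needed only 20 or more counts in every library, so the shares do not compare like with like. The median difference was -0.02 nt over the 49 arms and over all 93 arms. With every library thinned to the smallest, 5 arms were longer and 12 shorter, of 48 tested. Without low glucose replicate 1 the counts were 3 and 8, and without high glucose replicate 1, 3 were longer. When each library's value was weighted by its counts within the fit of an arm, 0 were called, with 16 of the 49 at an unadjusted p under 0.05. In 10 arms all high glucose libraries had longer ends than all low glucose libraries, and in 20 arms shorter ends, against 16.1% and 32.3% of all fitted arms. With the log2 ratio of longer to other counts in place of the mean end, miR-423-5p, miR-140-3p, miR-25-3p, miR-1839-5p, miR-224-5p, miR-101b-3p and miR-27b-3p were not called (limma adjusted p from 0.0584 to 0.915), and miR-222-3p, miR-146b-5p and miR-30d-5p changed direction. No form longer than the main one was kept for miR-222-3p or miR-24-3p, and few counts for miR-146b-5p and miR-30d-5p. For these arms depth sets the ratio, so it cannot test their ends. The most counted length differed between the groups in 5 arms, miR-24-3p, miR-101a-3p, miR-125b-5p, miR-146a-5p and miR-423-5p. Of the 33 arms on the 5p side 3 were longer and 9 shorter, and of the 16 on the 3p side 3 and 4.

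Usage, the counts of a sequence relative to all other listed tags of its arm, was tested for 142 of the 185 variants, and the other 43 had too few counts. In high glucose 8 variants had a higher and 28 a lower usage (edgeR diffSpliceDGE, Benjamini-Hochberg adjusted p under 0.05), which is 25.4% against a background of 17.2% among all 1442 tags tested. The background was 7.07% higher and 10.1% lower. Of the 28 lower ones 16 were longer and 12 shorter than their main form, while 7 of the 8 higher ones were shorter. The median log2 fold change of usage was -0.35 over the tested variants and -0.08 over all tags. Variants are by definition not the most counted form in the pooled counts, most of which came from the deeper high glucose libraries. This favours a lower usage of variants there. The background tags include main forms and were not selected in this way, so the excess of lower usage cannot be read apart from the selection. Fewer variants were called when any 1 low glucose library was left out. Without replicate 1, 21 were lower and 2 higher (153 tested), without replicate 2, 19 and 2 (150 tested), and without replicate 3, 23 and 4 (156 tested). At equal depth 100 variants were tested in place of 142, and the median over draws was 28.5 lower and 10 higher. The background shares above are those at full depth. When only fixed-start forms entered the fit, an alternative chosen after seeing the data, 36 were lower and 13 higher. Without the count filter, calls described below were lost for the 20 nt variants of miR-10b-5p, miR-24-3p and miR-1839-5p, the 21 nt variants of miR-100-5p and miR-224-5p, the 22 nt variants of miR-99b-5p and miR-125b-5p, the 23 nt variant of miR-146b-5p and the 24 nt variant of miR-222-3p (edgeR adjusted p from 0.0524 to 0.731). Of these, voom with limma's diffSplice did not call those of miR-10b-5p, miR-24-3p, miR-1839-5p, miR-99b-5p, miR-125b-5p and miR-146b-5p (limma adjusted p from 0.0516 to 0.341), and RLE scaling did not call those of miR-24-3p and miR-100-5p (edgeR adjusted p = 0.0504 and 0.0523).

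In high glucose, forms 1 base longer than the main one lost share in several members of the family of miR-10, miR-99, miR-100 and miR-125. These miRNAs have closely related seeds and are known to take part in body patterning and cell growth. All 7 arms listed for this family met the count minimum, and 5 of them had shorter ends in high glucose (limma), while 0 had longer ends and 0 reached that side at an unadjusted p under 0.05. Of its 23 tested variants 12 had a lower and 3 a higher usage (edgeR), and voom with limma's diffSplice gave 10 and 2. The counts of arms stand beside 21.5% shorter and 7.53% longer of all fitted arms, and those of variants beside 10.1% lower and 7.07% higher of all tags. The tags were not selected on pooled counts as the variants were, so the excess of lower usage cannot be read apart from that selection.

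The 23 nt variant of miR-10a-5p, which gains a G over the main form, made up 1.498%, 0.538% and 2.19% of the fixed-start counts in high glucose replicates 1 to 3, and 9.57%, 11.1% and 8.95% in low glucose replicates 1 to 3. All high glucose libraries lay below all low glucose ones. Its usage fell by 2.77 on the log2 scale (SE 0.35, edgeR adjusted p = 1.77e-10). It was read 474, 288 and 956 times in high and 93, 120 and 95 times in low glucose. The 24 nt variant, a further base longer, went the same way, at 1.02% ± 0.777 against 4.52% ± 0.456 (SD, n = 3, log2 usage -2.12, edgeR adjusted p = 3.27e-06). So did the 21 nt variant, at 0.605% ± 0.103 against 2.51% ± 0.709, and the main form held 96.7% ± 1.22 of the counts in high and 82.6% ± 1.897 in low glucose. The mean end was 22.04, 21.9997 and 22.02 nt in high and 22.15, 22.17 and 22.15 nt in low glucose, a difference of -0.13 nt (SE 0.02, limma adjusted p = 0.0029).

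miR-10b-5p, with the same seed, narrowed in the same manner. Its 23 nt variant held 0.751%, 0.442% and 1.11% in high and 7.17%, 9.31% and 6.03% in low glucose. The groups stood well apart, and usage fell by 3.14 on the log2 scale (SE 0.32, edgeR adjusted p = 3.03e-14). Its variants of 24 and 21 nt fell as well, by 2.81 (edgeR adjusted p = 1.25e-10) and 2.54 (edgeR adjusted p = 4.92e-09). The 20 nt variant fell by 2.40 (edgeR adjusted p = 0.00267), a call lost without low glucose replicate 3 (edgeR adjusted p = 0.0969). The mean end of miR-10b-5p was shorter by a small step, from 22.1 nt to 22.01 nt (difference -0.09 nt, SE 0.02, limma adjusted p = 0.0076).

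In miR-99a-5p the 22 nt variant, again ending in an added G, held 0.966%, 0.535% and 1.49% in high and 7.65%, 9.04% and 7.19% in low glucose. Its usage fell by 2.93 (SE 0.31, edgeR adjusted p = 9.26e-14), with no overlap between the groups. The 23 nt variant of miR-99a-5p was read 0, 2 and 0 times in high glucose, in spite of its greater depth, and 4, 7 and 4 times in low glucose. In the sister miRNA miR-99b-5p the 22 nt variant was nearly as common as the main form in low glucose, at 44.9%, 46.5% and 44.6%, and held 20.4%, 12.8% and 22.1% in high glucose. Usage of this form, the RefSeq mature sequence, fell by 1.12 (SE 0.26, edgeR adjusted p = 0.0014), a call lost without low glucose replicate 2 (-1.05, edgeR adjusted p = 0.0509), without the count filter (edgeR adjusted p = 0.169) and with voom (-0.60, limma adjusted p = 0.0967). The mean end of miR-99b-5p was 0.25 nt shorter (SE 0.03, limma adjusted p = 0.0029), or 0.18 nt with any length kept (limma adjusted p = 0.0509), and that of miR-99a-5p 0.07 nt shorter (SE 0.01, limma adjusted p = 0.0076). The third arm with this seed, miR-100-5p, had a difference of -0.16 nt (SE 0.06, limma adjusted p = 0.0854). Its 21 nt variant, 1 base shorter than the main form, held 29.5% ± 9.20 in high against 16.2% ± 3.16 in low glucose (log2 usage 0.81, edgeR adjusted p = 0.0488). That call did not survive leaving out high glucose replicate 2 or any low glucose library, with edgeR adjusted p from 0.151 to 0.423.

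miR-125a-5p had the widest shift of this family in its mean end. The mean length was 22.19, 22.08 and 22.22 nt in high glucose and 22.53, 22.61 and 22.64 nt in low glucose, 0.43 nt shorter (SE 0.05, limma adjusted p = 0.0029). Its 23 nt variant, with an added G, made up 8.54%, 4.31% and 9.94% in high and 39.0%, 41.7% and 44.9% in low glucose, with the groups far apart. Usage fell by 2.59 (SE 0.33, edgeR adjusted p = 9.79e-09). The RefSeq mature form of 24 nt held 5.06% ± 2.40 in high and 9.33% ± 1.26 in low glucose (SD, n = 3, log2 usage -1.05, edgeR adjusted p = 0.0535).

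miR-125b-5p, with the same seed, spread out instead of narrowing. In low glucose the 21 nt main form held 80.4%, 83.6% and 77.8%, while in high glucose it held 32.4%, 31.2% and 40.7% and both neighbours gained. The 20 nt variant made up 24.4%, 32.4% and 21.8% in high and 4.86%, 4.32% and 5.24% in low glucose. Usage of this shorter form rose by 2.00 (SE 0.32, edgeR adjusted p = 3.39e-07). The 22 nt variant, the RefSeq mature sequence, held 41.5%, 35.8% and 36.7% in high and 14.7%, 11.9% and 16.4% in low glucose. It rose by 0.98 (SE 0.30, edgeR adjusted p = 0.0118), and lost its call without low glucose replicate 1 (edgeR adjusted p = 0.138) or 2 (edgeR adjusted p = 0.282). With variants gained at both sides, the mean end differed by 0.04 nt (SE 0.04, limma adjusted p = 0.554).

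miR-122-5p, outside this family, had the largest fall in usage among the variants singled out by the naming rule. Its 22 nt variant, the RefSeq mature sequence with a G beyond the main form, made up 2.18%, 2.15% and 1.61% in high and 23.7%, 23.6% and 24.6% in low glucose. The values were tight within each group and did not overlap. Usage fell by 3.31 (SE 0.31, edgeR adjusted p = 3.07e-12), and the mean end was 0.30 nt shorter (SE 0.03, limma adjusted p = 0.00114). The arm is the 1 liver marker among these arms, and the summed liver list moved with the groups as given above.

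Grouping the 46 variants longer by 1 base by the base they add was done after their values were seen, so the counts are descriptions. Of the 15 that add a G, 11 were tested. Of these 7 had a lower usage in high glucose and 0 a higher one (edgeR), with 9 lower and 0 higher at an unadjusted p under 0.05, and 7 and 0 by voom with limma's diffSplice. Among all tags 10.1% were lower and 7.07% higher. Those tags include main forms, and the limit from selecting variants on pooled counts, described above, holds here too. The 7 lower ones were the variants of miR-10a-5p, miR-10b-5p, miR-99a-5p, miR-99b-5p, miR-122-5p and miR-125a-5p described above, and a 23 nt form of let-7f-5p. All but those of miR-122-5p and let-7f-5p belong to the family described above, so added base and family cannot be told apart for them. let-7f-5p joins hairpin copies, and its other 23 nt form adds a T. A shift between copies and a shift between ends cannot be told apart there. The mean share of these 15 variants was 3.17% in high and 11.3% in low glucose. Of the 11 that add an A, all tested, 1 was higher and 1 lower, at 16.2% in both groups on average. Of the 15 that add a T, 14 were tested and 1 was lower, at 9.70% against 11.7%, with 0 higher by edgeR against 1 at an unadjusted p under 0.05 and 1 by voom. Of the 5 that add a C, 2 were tested and 1, the 21 nt variant of miR-27a-3p, was lower. That variant held 2.97%, 7.55% and 3.40% in high and 17.6%, 20.95% and 8.85% in low glucose (log2 usage -2.27, SE 0.47, edgeR adjusted p = 0.00165).

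A lower share need not mean fewer molecules, so the abundance of each sequence was compared as well, here in CPM scaled by edgeR's TMM factors. In bulk RNA, fewer cells that make a miRNA and less of it per cell cannot be told apart. The 23 nt variant of miR-10a-5p measured 618 ± 326 CPM under high and 646 ± 65.5 CPM under low glucose (SD, n = 3, log2 fold change -0.06, edgeR adjusted p = 0.902). The main form of miR-10a-5p stood at 44534 ± 6563 against 5451 ± 907 CPM and was higher by 3.03 on the log2 scale (SE 0.20, edgeR adjusted p = 7.94e-06). The main form was thus the one called, and the same held for miR-10b-5p. There the 23 nt variant was at 460 ± 146 against 555 ± 100.1 CPM (log2 -0.27, edgeR adjusted p = 0.447) and the main form at 61572 ± 11439 against 6312 ± 732 CPM (log2 3.29, SE 0.20, edgeR adjusted p = 6.41e-06). In miR-125a-5p the 23 nt variant was at 718 ± 154 against 561 ± 156 CPM (log2 0.36, edgeR adjusted p = 0.299), beside a main form higher by 3.79 (SE 0.27, edgeR adjusted p = 1.09e-05). With upper quartile scaling the fold changes of these 3 variants were -0.51, -0.72 and -0.09 (edgeR adjusted p = 0.295, 0.0605 and 0.803). Thus 0 of them was called under either scaling, though miR-10b-5p came near with upper quartile scaling (edgeR, also 0 at an unadjusted p under 0.05 with TMM).

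Other variants went against their own main form. Of the 65 variants called for abundance, 9 were called in the direction opposite to a called main form (edgeR). Among all 1485 sequences 35.7% were higher and 16.5% lower, so calls in both directions were common. The share of opposite calls over all arms is not given here. The 22 nt variants of miR-99a-5p and miR-122-5p were lower by 1.93 (SE 0.37, edgeR adjusted p = 0.0024) and by 0.99 (SE 0.28, edgeR adjusted p = 0.0159), while their main forms were higher by 1.17 and 3.16. The variants of miR-125b-5p of 20, 22 and 23 nt were higher by 3.00, 1.98 and 2.59, while the 21 nt main form was lower by 0.65 (SE 0.22, edgeR adjusted p = 0.0329). The other 4 were the 23 nt variant of miR-99a-5p, the 21 and 23 nt variants of miR-146b-5p and the 20 nt variant of miR-1839-5p. With upper quartile scaling the main form of miR-146b-5p was not called (log2 0.05, edgeR adjusted p = 0.848), nor were the 23 nt variant of miR-125b-5p (edgeR adjusted p = 0.0545) and the 20 nt variant of miR-1839-5p (log2 1.06, edgeR adjusted p = 0.0528).

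Of the 142 variants tested for abundance 39 were higher and 26 lower in high glucose (edgeR), which is 45.8% against a background of 52.2% among 1485 sequences, with 35.7% higher and 16.5% lower. The median log2 fold change was 0.27 over these variants and 0.61 over all sequences. At equal depth 100 variants were tested, and the median over draws was 28 higher and 28 lower. Upper quartile scaling moved the median of all sequences by -0.46 and gave 31 variants higher and 37 lower, which puts the higher share of its calls at 45.6% against 60.0%.

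Of the 6 arms with longer ends in high glucose, 5 had a lower total share of forms shorter than the main one in high glucose with no overlap between the groups, and miR-140-3p was the exception. miR-222-3p, a miRNA that promotes cell proliferation, had the largest shift of the 49 arms, with mean lengths of 24.32, 24.15 and 24.15 nt in high and 23.27, 23.11 and 23.64 nt in low glucose. The groups did not overlap, and the difference was 0.87 nt (SE 0.14, limma adjusted p = 0.0076). Its 21 nt variant, the RefSeq mature sequence, made up 6.03%, 9.05% and 8.58% in high and 32.8%, 36.9% and 23.04% in low glucose. Usage of that short form fell by 1.99 (SE 0.34, edgeR adjusted p = 1.17e-06). The 24 nt variant held 36.8% ± 2.22 against 18.2% ± 2.44 (SD, n = 3, log2 usage 1.05, edgeR adjusted p = 0.0106), a call lost without any 1 of the low glucose libraries (edgeR adjusted p from 0.186 to 0.359). The main form of miR-222-3p is 25 nt, the upper limit of the lengths kept, and the 21 nt variant itself was not lower in abundance, at 1311 ± 19.6 against 431 ± 99.1 CPM (log2 1.60, SE 0.23, edgeR adjusted p = 0.000481). miR-221-3p, which shares the seed GCTACAT and the cluster of miR-222, had a difference of 0.05 nt (SE 0.03, limma adjusted p = 0.285).

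miR-423-5p switched its most counted length. All 3 high glucose libraries had most counts at 23 nt, and all 3 low glucose libraries at 21 nt. The 21 nt variant made up 17.5%, 15.5% and 19.0% in high and 42.2%, 43.5% and 48.4% in low glucose. Its usage fell by 1.29 (SE 0.31, edgeR adjusted p = 0.000822), and the mean end was 0.57 nt longer (SE 0.04, limma adjusted p = 0.00114). The 22 nt variant held 14.7% ± 1.12 and 14.3% ± 1.14 (SD, n = 3), and its groups overlapped. The remaining longer ends were smaller steps. In miR-146b-5p, a miRNA induced in inflammation, the 23 nt variant made up 14.1%, 18.2% and 23.2% in high and 33.5%, 36.2% and 34.5% in low glucose, and the mean end was 0.20 nt longer (SE 0.03, limma adjusted p = 0.00677). Usage of that variant fell by 0.85 (edgeR adjusted p = 0.02) and did not keep its call when high glucose replicate 1 or any low glucose library was left out (edgeR adjusted p from 0.11 to 0.266).

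In miR-30d-5p the 22 nt variant, 2 bases short of the main form, held 0.957%, 1.30% and 1.73% in high and 7.93%, 7.80% and 4.66% in low glucose. Usage fell by 2.35 (SE 0.31, edgeR adjusted p = 1.22e-09). The mean end was 0.20 nt longer (SE 0.04, limma adjusted p = 0.0223), a call lost without high glucose replicate 1 (limma adjusted p = 0.0672) or low glucose replicate 1 (limma adjusted p = 0.0789). miR-140-3p, an abundant miRNA of cartilage, was 0.35 nt longer (SE 0.09, limma adjusted p = 0.035), with its 23 nt variant at 38.3%, 37.5% and 28.6% in high and 22.98%, 16.2% and 15.4% in low glucose. Its shorter forms held 7.46% ± 2.10 against 8.05% ± 1.65 (SD, n = 3), which overlapped, and its longer ones 37.5% ± 7.61 against 20.04% ± 4.01. miR-25-3p was 0.13 nt longer (SE 0.03, limma adjusted p = 0.04). These last calls were lost in 5 of 6 fits that left out a library, and held only without high glucose replicate 3 for miR-140-3p and only without high glucose replicate 2 for miR-25-3p (limma adjusted p up to 0.107 and 0.116). At equal depth the call of miR-25-3p was lost too (limma adjusted p = 0.0632).

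miR-24-3p, encoded in clusters with miR-23 and miR-27, shortened. Its mean length was 20.99, 20.94 and 21.12 nt in high and 21.42, 21.45 and 21.32 nt in low glucose, 0.38 nt shorter (SE 0.06, limma adjusted p = 0.0076). In low glucose the 22 nt RefSeq form led with 58.6%, 62.1% and 52.6%. In high glucose the forms of 20, 21 and 22 nt were near-equal, at 32.2% ± 4.96, 33.9% ± 1.901 and 33.9% ± 4.33 (SD, n = 3), and the 20 nt form led in replicates 1 and 2. Usage of the 20 nt variant was higher by 0.80 (edgeR adjusted p = 0.0493), a call lost in 5 of 6 fits that left out a library and kept without high glucose replicate 3 (edgeR adjusted p up to 0.427). Of the 5 arms of these clusters 3 were shorter and 0 longer (limma, 0 longer at an unadjusted p under 0.05), beside 21.5% and 7.53% of all fitted arms. miR-23a-3p was 0.37 nt shorter (SE 0.07, limma adjusted p = 0.0145) and miR-27b-3p 0.16 nt (SE 0.03, limma adjusted p = 0.0145). Both calls were lost without low glucose replicate 1 (limma adjusted p = 0.0532 and 0.054).

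miR-146a-5p and miR-146b-5p share the seed GAGAACT and went opposite ways, a difference between the miRNAs that was not tested. miR-146a-5p was 0.34 nt shorter in high glucose (SE 0.09, limma adjusted p = 0.037), and its most counted form was 21 nt in all high and 22 nt in all low glucose libraries. The 21 nt form made up 45.02%, 64.8% and 48.3% in high and 26.3%, 31.2% and 23.4% in low glucose. Leaving out high glucose replicate 3 or any low glucose library ended the call (limma adjusted p from 0.0596 to 0.0958). It is also the 1 arm whose main form changed, to 22 nt, when libraries were weighted alike.

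The other 3 arms called shorter were miR-1839-5p by 0.30 nt (SE 0.07, limma adjusted p = 0.0329), miR-224-5p by 0.22 nt (SE 0.06, limma adjusted p = 0.04) and miR-101b-3p by 0.21 nt (SE 0.06, limma adjusted p = 0.0377). Leaving out high glucose replicate 1 or any low glucose library ended the call of miR-1839-5p (limma adjusted p up to 0.0958). For miR-224-5p every omission but that of high glucose replicate 1 did so (up to 0.113), and for miR-101b-3p every one but that of low glucose replicate 1 (up to 0.107). The calls of miR-224-5p and miR-101b-3p were also lost at equal depth (limma adjusted p = 0.0558 and 0.098), and that of miR-101b-3p when listed sequences of any length were kept (limma adjusted p = 0.0749). In miR-1839-5p the 20 nt variant made up 20.9%, 15.4% and 21.6% in high and 4.28%, 5.11% and 3.33% in low glucose (log2 usage 2.04, SE 0.57, edgeR adjusted p = 0.00662). That call was lost without any 1 low glucose library (edgeR adjusted p from 0.0756 to 0.0872). The 21 nt variant of miR-224-5p held 15.3% ± 2.15 against 6.81% ± 1.55 (SD, n = 3, log2 usage 1.11, edgeR adjusted p = 0.0165), again lost without any 1 low glucose library (edgeR adjusted p from 0.13 to 0.359). The 20 nt variant of miR-22-3p made up 3.71%, 5.93% and 5.28% in high and 0.715%, 0.817% and 1.66% in low glucose. It had the largest rise in usage among the named variants, at 2.22 (SE 0.45, edgeR adjusted p = 0.00021), and kept its call without each library in turn.

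Of the 5 most counted arms, miR-10b-5p and miR-99a-5p were called as described, and the other 3 were not called. miR-21-5p, linked to injured tissue, had mean lengths of 22.90, 22.83 and 22.86 nt in high and 22.85, 22.87 and 22.90 nt in low glucose, which overlapped (difference -0.01 nt, SE 0.02, limma adjusted p = 0.859). let-7b-5p differed by 0.04 nt (SE 0.03, limma adjusted p = 0.504) and let-7c-5p by -0.03 nt (SE 0.01, limma adjusted p = 0.0638). The 23 nt variant of let-7b-5p held 18.7% ± 1.67 in high and 15.9% ± 1.48 in low glucose (SD, n = 3, log2 usage 0.18, edgeR adjusted p = 0.724). In let-7c-5p the variants of 21 and 23 nt had log2 usage changes of 0.23 (edgeR adjusted p = 0.661) and -0.56 (edgeR adjusted p = 0.183). Of the 6 let-7 arms, known as brakes on growth-promoting genes, 0 were called (limma), with 2 shorter and 0 longer at an unadjusted p under 0.05. Of their 21 tested variants 1 was lower and 0 higher (edgeR), with 2 lower and 1 higher at an unadjusted p under 0.05. Voom with limma's diffSplice gave 1 lower and 0 higher. These counts stand beside 7.53% longer and 21.5% shorter of all fitted arms, and 7.07% higher and 10.1% lower of all tags.

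In the remaining lists the most counted arm was described. miR-29a-3p differed by -0.02 nt (limma adjusted p = 0.627), miR-26a-5p by 0.0025 nt (limma adjusted p = 0.958), miR-34c-5p by 0.0058 nt (limma adjusted p = 0.943), miR-103-3p by 0.04 nt (limma adjusted p = 0.627) and miR-101a-3p by -0.13 nt (limma adjusted p = 0.109). miR-450a-5p, encoded near miR-322 and miR-503, differed by -0.10 nt (limma adjusted p = 0.0659). Among markers of other cells, the erythroid miR-451-5p differed by 0.0014 nt (limma adjusted p = 0.98) and the neuronal miR-218a-5p by -0.08 nt (limma adjusted p = 0.0638). The retinal and muscle lists had 0 arms with enough counts, as had the lists of miR-15 and miR-16, of miR-148 and miR-152, of miR-181, and of miR-143 and miR-145. In the list of vesicle-rich miRNAs 1 of 7 arms, miR-423-5p, was longer and 0 shorter (limma, with 2 longer and 0 shorter at an unadjusted p under 0.05). Of all fitted arms 7.53% were longer and 21.5% shorter. Of the 27 tested variants of that list 2 had a lower and 0 a higher usage (edgeR), beside 10.1% and 7.07% of all tags. At an unadjusted p under 0.05 these were 3 and 1, and by voom with limma's diffSplice 2 and 1.

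Over all arms taken with equal weight, variants held 24.5%, 23.7% and 23.8% of the fixed-start counts in high and 28.0%, 27.5% and 27.2% in low glucose. The high glucose libraries all lay below, by 3.60 percentage points, at an exact two-sided permutation p of 0.1, which is the smallest that 3 against 3 libraries allow. The main forms were picked on pooled counts, most of which came from the deeper high glucose libraries, and this favours a low variant share there. With libraries weighted alike the difference was -2.63 points, and at equal depth it was -3.92 points. The forms longer by 1 base made up 8.83%, 6.93% and 7.60% in high and 11.1%, 10.99% and 11.2% in low glucose, with no overlap (exact two-sided permutation p = 0.1). With counts pooled over arms they went the other way, at 4.98% ± 0.192 against 3.68% ± 0.125 (SD, n = 3), again with no overlap and at the same p. The forms shorter by 1 base took 10.3% ± 0.723 in high against 9.85% ± 0.252 in low glucose (SD, n = 3), which overlapped (exact two-sided permutation p = 0.4). With counts pooled over arms, where miR-21-5p and the let-7 arms weigh most, the variant share was 17.4% in high and 17.0% in low glucose, a difference of 0.376 points in the opposite direction (exact two-sided permutation p = 0.8). The mean end relative to the main form differed by -0.03 nt with equal weights (exact two-sided permutation p = 0.3) and by 0.03 nt with pooled counts.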

How the data were processed

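Small RNA was measured in 6 libraries of RSC96 cells, with group and number taken from each title. The authors deposited raw counts per distinct sequence and hairpin, per the file headers, with the place in the hairpin and any mismatch. Novoalign 3.02.12 and cutadapt 1.9.3 appear in the submitters' processing notes, with no role stated. For the genome build and hairpin release the entry is “not given in the sources used here”, and the GRCr8 places come from RefSeq alone. Sequences under 2 reads are not listed, and where several hairpins list the same sequence the authors' tables divide its reads evenly. The members, lists and tests were chosen with earlier results of these data known.

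Of the counts of the 49 arms (matching, 20 to 25 nt), 96.3% began at the most counted start. An uncalled base (N) was written out from the hairpin, in 69 of the 271 listed pairings but in 0.104% of variant counts. Of the variants, 3 were also listed under another arm, with 0.214% of the counts. R 4.3.3 and Python 3.11.15 were used, the latter with SciPy 1.17.1, NumPy 2.4.6 and pandas 2.3.3. Mean ends were fitted with limma 3.58.1 (eBayes with a trend on log2 mean count, robust) over arms with 20 or more counts in every library. Usage and abundance were fitted with edgeR 4.0.16 (quasi-likelihood, TMM scaling, filterByExpr with a minimum count of 10), with Benjamini-Hochberg adjustment at 0.05 over everything fitted. DESeq2 1.42.0 and limma's diffSplice on voom values were alternatives. For values of whole libraries, exact two-sided permutation tests ran over 10 splits. The SE of a log2 value is its size over the square root of F. The fits were tested on simulated data.

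Depth per library was 114615 to 1354456 counts. For equal depth, 20 seeded draws of 114497 reads per library were made, with the minimum of 2 reads applied again. Reads carry no molecular identifiers, so counting precision is an upper limit. Same-group libraries differed beyond counting noise (2.22 to 39.2 for the ratio of chi-square to its degrees of freedom), so none was taken as a repeat. Named were the 5 most counted arms, the 10 largest mean end differences in each direction among called arms with separate groups, the 10 most counted variants, the 10 largest usage rises and falls among called variants whose groups did not overlap and whose mean count reached 50 in either condition, the most counted arm of each list, and the arms at the count minimum. The variants of miR-27a-3p and let-7f-5p, those of opposite direction and other forms of named arms were chosen after their values were seen.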

Additional observations from a re-analysis of the deposited data

How the results depend on the processing

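Low glucose depth and the spread of 3 libraries limit these results most. Leaving out each library in turn gave 11 to 17 arms with a changed mean end, 3 to 6 longer and 8 to 14 shorter, and 21 to 42 variants with changed usage, 2 to 11 higher and 19 to 31 lower. Of the shorter ends 21 were called when listed sequences of any length were kept. With each library's value weighted by its counts 0 ends were called in total, 0 longer and 0 shorter (limma, 16 at an unadjusted p under 0.05), and with the log2 ratio of longer to other counts 2 were longer. That ratio also turned 4 directions, to -6.13 for miR-222-3p, -0.49 for miR-146b-5p, -2.22 for miR-30d-5p and -2.38 for miR-34c-5p, whose main forms have few or no longer forms, so that the added 0.5 counts and depth set the ratio. Usage was called for 61 variants, 29 higher, with any length kept, for 22 variants, 2 higher, without the count filter (185 tested), and for 13 higher among fixed-start forms only, an alternative chosen after seeing the data. Leaving out sequences with an N, also chosen later, moved no count past 1.5 times. Abundance gave 104 calls, 77 higher, with any length kept, and 13 lower without the filter. The difference in variant share was -0.927 points with any length, -2.63 with libraries weighted alike, -2.91 in arms with 200 or more counts per library, and 0.376 with pooled counts. The mean end over arms differed by -0.13 nt with any length and 0.029 nt with pooled counts. Where no cause is given, the cause was not tested. Among values of single arms and variants, 673 kept their side of the threshold, 108 lost a call, 10 gained one and 4 reversed.

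Whether the replicate numbers pair the libraries cannot be told from 3 libraries per group. Same-numbered libraries correlated at -0.04, 0.05 and -0.11 in their deviations of log2 CPM from the group means. In mean length they correlated at 0.44, 0.57 and 0.05. There replicates 1 and 2 matched their own number best, while high glucose replicate 3 correlated more with low glucose replicate 2 (0.10). With the replicate block 20 ends (14 shorter), 32 variants for usage (5 higher, 27 lower) and 53 for abundance were called. It ended the usage calls of the 22 nt variant of miR-125b-5p (edgeR adjusted p = 0.0557), the 21 nt variant of miR-100-5p (edgeR adjusted p = 0.092) and the 20 nt variant of miR-24-3p (edgeR adjusted p = 0.145).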
